A study of Mus musculus with 4 samples.

Results

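Angptl7, Angptl1, Myoc, Clu and 1500015O10Rik are 5 genes for secreted proteins, followed here across the cells of the mouse Achilles tendon. Of 15746 genes they were selected on their measured levels in tendon fibroblasts against all other cells of these same data, so their contrast between tendon fibroblasts and other cells is given as a description with no test. The study made a single-cell atlas of this tendon, through which the calf muscles pull on the heel. Its 4 libraries, numbered 1 to 4 by the labels, form a single group: Achilles tendon of male mice of the strain C57Bl/6 aged 6 weeks, with no treatment and no other allele named. Each library was made by droplet-based 3′ RNA sequencing, in which every captured molecule carries a unique molecular identifier (UMI). Whether a library holds the cells of a single mouse or of pooled mice is not in the labels, so p-values measure only the spread between these libraries. The authors' annotation puts each of the 1191 cells into 1 of 13 populations, among them tendon fibroblasts 1, 2 and 3.

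Tendon fibroblasts build and maintain the collagen matrix of the tendon, and they release many proteins into it. Angiopoietin-like proteins such as those of Angptl7 and Angptl1 resemble the vessel growth factors called angiopoietins, with a coiled coil and a fibrinogen-like domain, but do not bind the angiopoietin receptor TEK in the way the angiopoietins do. Myocilin, made from Myoc, is a glycoprotein with an olfactomedin domain that is best known from the outflow tissue of the eye, where Angptl7 is also made, and mutations in human MYOC cause glaucoma. Clusterin, made from Clu, is an extracellular chaperone that holds unfolded proteins in solution and travels on lipoprotein particles. 1500015O10Rik is the older symbol of Ecrg4, which encodes the small secreted precursor of the peptide augurin.

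The genes lie at separate places of the genome (GENCODE M21, build GRCm38, which has the coordinates of the mm10 build named by the submitters' processing notes). Angptl7 (ENSMUSG00000028989.3) spans chr4:148495183-148500460 on the minus strand, inside Mtor on the plus strand, with 0 exons overlapping. Angptl1 (ENSMUSG00000033544.6) spans chr1:156838562-156861078 on the plus strand, inside Ralgps2 on the minus strand, again with 0 exons overlapping. Myoc (ENSMUSG00000026697.10) spans chr1:162639155-162649693 on the plus strand and overlaps Myocos on the other strand. Clu (ENSMUSG00000022037.15) spans chr14:65968483-65981547 on the plus strand, and 1500015O10Rik (ENSMUSG00000026051.8) spans chr1:43730602-43742578 on the plus strand and overlaps the antisense gene Gm29155. All 5 are protein-coding genes. The strand setting of the authors' counting is not given in the sources used here, so reads of a gene and of its overlapping partner may not be told apart. The host genes had lower mean levels than the genes inside them in tendon fibroblasts 1 and 2. Mtor, a growth-signalling kinase, stood at 35.8 CPM (UMIs of the gene scaled to a fixed total of all UMIs of a sum of cells) ± 9.09 in tendon fibroblasts 1 (SD, n = 4). That was its highest mean of the populations, with 22.3 CPM ± 6.49 in tendon fibroblasts 2 (n = 3). Ralgps2, an exchange factor for small GTPases, stood at 2.79 CPM ± 2.91 in tendon fibroblasts 2 (n = 3) and 3.34 CPM ± 3.99 in tendon fibroblasts 1 (n = 4). Gm29155 had 2 UMIs in all tendon fibroblasts.

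The promoters of 4 of the genes were found in the RefSeq table (GRCm38.p6), and Clu was not matched. Of the 250 bases upstream of the transcript start, 3 sequences are shown, because Angptl7 and Myoc stood higher in tendon fibroblasts 1 while Angptl1 stood higher in tendon fibroblasts 2. They lie at chr4:148500463-148500712 (minus strand), chr1:156838773-156839022 (plus strand) and chr1:162638900-162639149 (plus strand), in the order shown and written 5′ to 3′ on the strand of the gene. The starts are those of RefSeq. For Angptl1 that start lies downstream of the GENCODE start, so the Angptl1 window falls inside the GENCODE span given above. Capitals mark E-boxes (CANNTG, a palindrome and so the same on both strands), the motif bound by basic helix-loop-helix factors such as the tendon factor scleraxis.
Angptl7: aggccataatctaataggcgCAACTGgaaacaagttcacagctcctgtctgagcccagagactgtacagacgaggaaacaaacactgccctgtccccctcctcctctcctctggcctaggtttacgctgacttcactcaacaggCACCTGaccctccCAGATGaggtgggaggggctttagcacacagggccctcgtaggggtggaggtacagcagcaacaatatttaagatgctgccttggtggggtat
Angptl1: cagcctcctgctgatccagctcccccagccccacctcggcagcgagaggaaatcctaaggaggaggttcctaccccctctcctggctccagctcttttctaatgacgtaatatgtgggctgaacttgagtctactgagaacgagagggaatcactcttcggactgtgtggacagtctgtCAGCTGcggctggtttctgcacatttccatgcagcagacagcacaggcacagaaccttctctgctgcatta
Myoc: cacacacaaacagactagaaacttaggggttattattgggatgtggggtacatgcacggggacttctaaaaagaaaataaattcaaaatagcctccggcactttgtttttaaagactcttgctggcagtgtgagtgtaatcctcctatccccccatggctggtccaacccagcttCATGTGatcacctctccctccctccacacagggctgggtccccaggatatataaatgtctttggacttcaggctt
The Angptl7 window holds 3 E-boxes, at 230, 106 and 93 bases before the start, and the Angptl1 and Myoc windows hold 1 each, at 71 and 75 bases before it. The window of 1500015O10Rik, chr1:43730352-43730601, holds 0. An E-box stands in 66.2% of the 32851 promoters of that length in the table, with a median of 1 copy and 3 at the 90th percentile, so the counts of these genes are within the usual range. The other motifs searched on both strands were TATAAA, found in Myoc 26 bases before the start (12.4% of promoters), AACAAT, a core bound by SOX factors, in Angptl7 at 33 bases (9.42%), and AGAACA, a half-site of steroid receptors, in 1500015O10Rik at 118 bases (16.1%). A match is a description of letters and not of binding.

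The libraries held 109 to 580 cells and 1375111 to 5603366 UMIs, and shared 0 cell barcodes. The median depth was 7440 to 8824 UMIs per cell. Tendon fibroblasts 1 to 3 made up from 5.69% (library 2) to 63.3% (library 3) of a library's cells. By cell type, the names of the populations fitted their markers: 8 of 8 tendon fibroblast markers, 5 of 5 endothelial, 6 of 6 nerve, 5 of 5 immune, 5 of 5 red blood cell, 4 of 4 bursal, 5 of 6 pericyte and 3 of 4 lymphatic markers stood highest in a population of that type. No population is named lymphatic, and the 4 lymphatic markers summed highest in endothelial cells 3 (6492 CPM, library 1). These counts do not check each numbered population, and the tendon marker Mkx was at 0 in tendon fibroblasts 3. In tendon fibroblasts 1 and 2 the 5 endothelial markers summed to between 7.81 and 22.7 CPM per library and the 5 immune markers to between 6.97 and 14.1 CPM, with Tie1 and Ptprc at 0. The 5 red blood cell markers, mainly hemoglobins, summed to between 44.2 and 419 CPM there, the 6 pericyte markers to between 258 and 401 CPM, the 6 nerve markers to between 18.6 and 180 CPM and the 4 bursal markers to between 3430 and 9377 CPM. At most 16.1 CPM there came from the 3 skeletal muscle markers measured. The 4 bone markers, mainly Ibsp, summed to between 31.3 and 1843 CPM in tendon fibroblasts 1. Whether cells of another type take part in the levels below was not tested. A population enters below with the libraries in which it has 5 or more cells, which are 4 for tendon fibroblasts 1, 3 for tendon fibroblasts 2 (libraries 1, 3 and 4) and 1 for tendon fibroblasts 3 (library 1, 45 of its 51 cells).

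Angptl7 transcripts were concentrated in tendon fibroblasts 1. There the gene stood at 6239, 4868, 12024 and 10104 CPM in libraries 1, 2, 3 and 4, a mean of 8309 CPM ± 3324 (SD, n = 4). Libraries 3 and 4 were high and library 2 was lowest. Tendon fibroblasts 2 came next with 514, 2523 and 72.5 CPM in libraries 1, 3 and 4 (mean 1036 ± 1306, n = 3), a spread as wide as the level itself, and tendon fibroblasts 3 with 149 CPM in library 1. The ranges of tendon fibroblasts 1 and 2 did not overlap, while tendon fibroblasts 3 lay within the range of tendon fibroblasts 2. In the other 10 populations the mean was between 3.70 and 20.1 CPM, and neighbours in that order overlapped.

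Angptl1 had the opposite order among the tendon fibroblasts. It stood at 199, 601 and 322 CPM in tendon fibroblasts 2 of libraries 1, 3 and 4 (mean 374 ± 206, n = 3). In tendon fibroblasts 1 it stood at 47.7, 15.6, 181 and 75.5 CPM in libraries 1 to 4 (mean 79.9 ± 71.5, n = 4), and in tendon fibroblasts 3 at 10.1 CPM. These 3 ranges did not overlap, but the highest value of tendon fibroblasts 1, in library 3, rested in part on 1 cell with 47 of its 134 UMIs, and was 119 CPM without that cell. Bursal fibroblasts, the lining cells of the fluid-filled pad beside the tendon, followed with 6.82 CPM ± 3.30 (n = 3, 4 UMIs). Endothelial cells 1 held 1 UMI. In the other 8 populations Angptl1 had 0 UMIs among 581 cells and 4764193 UMIs, which allows up to 0.630 CPM at a floor of 3 counts.

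Myoc stood at 2018, 4806, 1277 and 551 CPM in tendon fibroblasts 1 of libraries 1 to 4 (mean 2163 ± 1861, n = 4). Tendon fibroblasts 2 held 786, 262 and 298 CPM in libraries 1, 3 and 4 (mean 449 ± 293, n = 3), and tendon fibroblasts 3 held 115 CPM. The ranges of tendon fibroblasts 1 and 2 overlapped, because library 4 was low in the first and library 1 high in the second. Single cells weighed on these values. The highest level, in tendon fibroblasts 1 of library 2, drew 52.8% of its UMIs from 1 of 9 cells and was 2837 CPM without it. In library 4, 1 of 21 cells of tendon fibroblasts 1 held 76.7% of the Myoc UMIs and 1 of 9 cells of tendon fibroblasts 2 held 73.0%. Without those cells the levels in library 4 were 133 and 85.4 CPM. Every other population had a mean of at most 5.45 CPM, and nerve cells 2 and 3 had 0 UMIs in 78 cells, which allows up to 4.50 CPM.

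Clu had the steadiest level in tendon fibroblasts 1 and the widest presence outside the tendon fibroblasts. It stood at 14200, 14237, 15274 and 14000 CPM in tendon fibroblasts 1 of libraries 1 to 4, a mean of 14428 CPM ± 574 (n = 4). The next population was not a fibroblast: endothelial cells 2, which the marker lists place in the vessel lining, held 283, 713, 1430 and 351 CPM (mean 694 ± 525, n = 4) and ranked second in each of the 4 libraries. Endothelial cells 1 followed with 243 CPM ± 129 (n = 4) and tendon fibroblasts 2 with 67.9, 601 and 16.1 CPM in libraries 1, 3 and 4 (mean 228 ± 324, n = 3). Endothelial cells 2, endothelial cells 1 and tendon fibroblasts 2 overlapped each other in that order. Tendon fibroblasts 3 held 10.1 CPM, 3 UMIs, and ranked 12th of the 13 populations.

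1500015O10Rik stood at 1496, 2446, 1796 and 4259 CPM in tendon fibroblasts 1 of libraries 1 to 4 (mean 2499 ± 1239, n = 4). Library 4 was high there. In tendon fibroblasts 2 it held 187, 760 and 201 CPM in libraries 1, 3 and 4 (mean 383 ± 327, n = 3), and in tendon fibroblasts 3 it held 47.2 CPM. The ranges of these populations did not overlap. Nerve cells 3 came next with 22.2 CPM ± 4.65 (n = 3), from 3 UMIs.

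**Figure D1:**
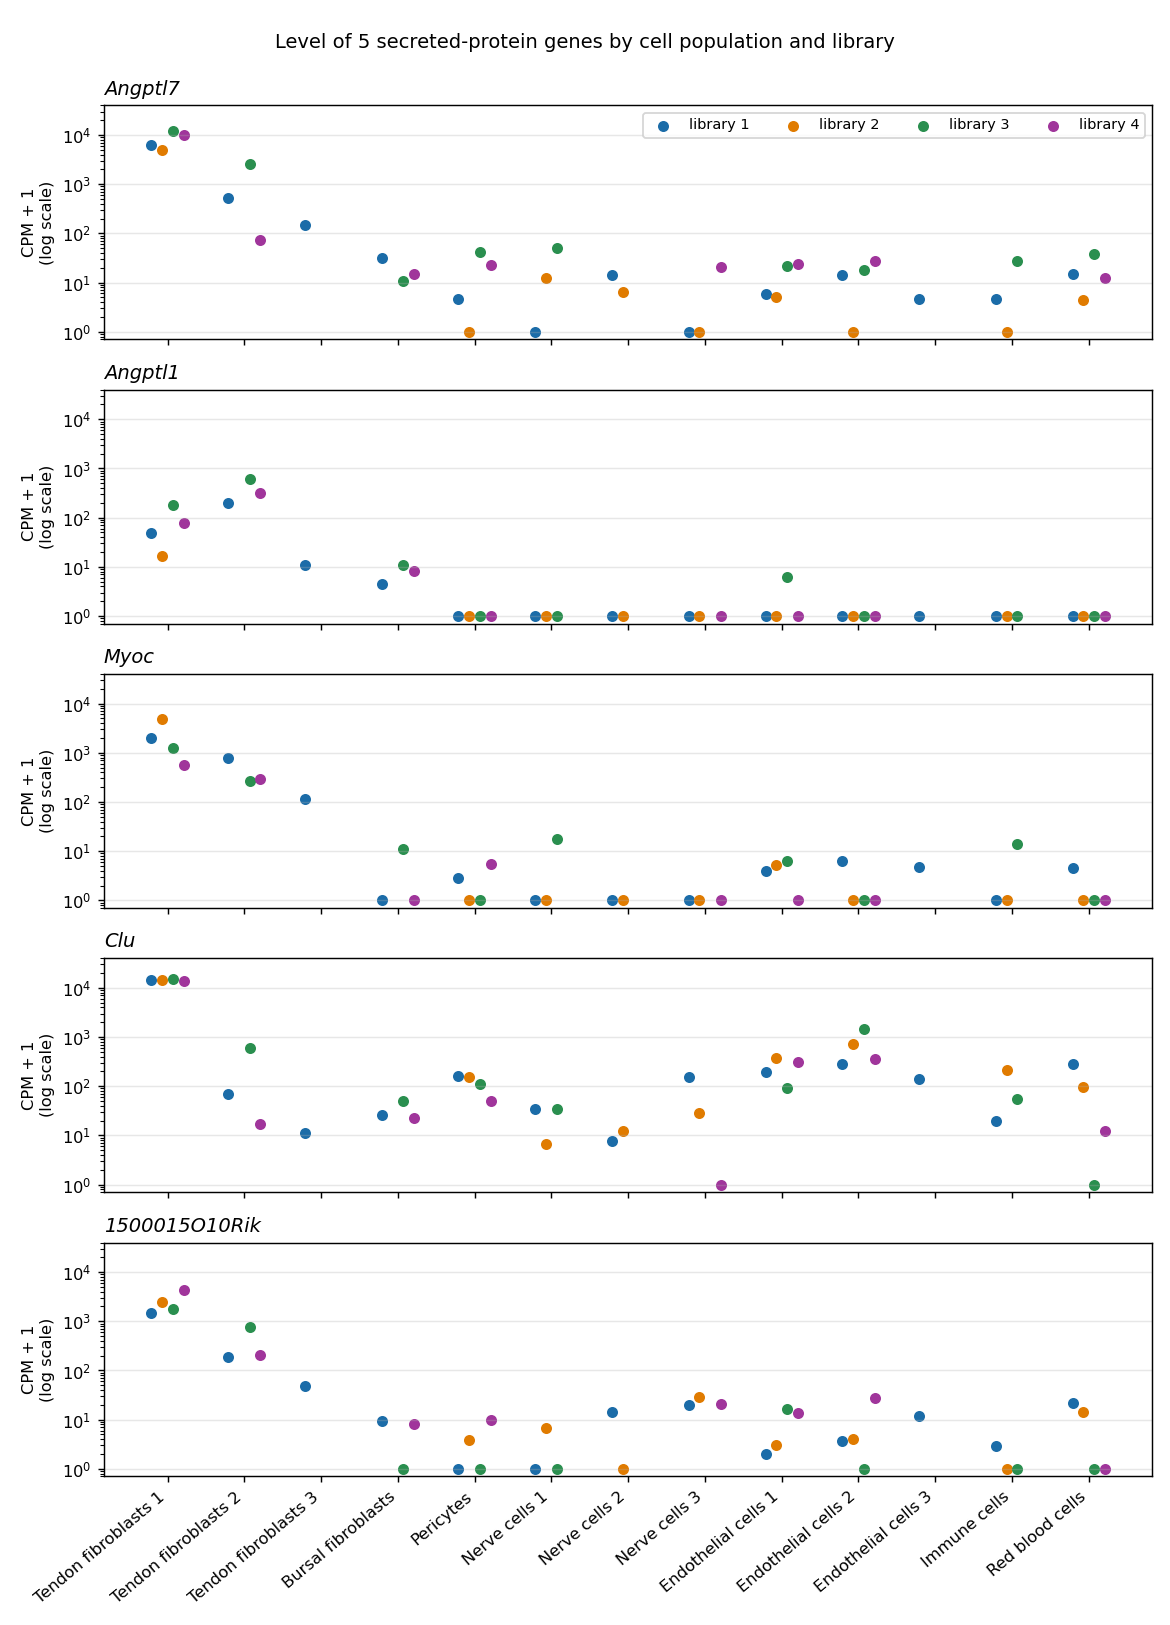
Level of each gene (CPM + 1, log axis) by population, 1 point per library with 5 or more cells of that population. Each gene is highest in tendon fibroblasts 1 or 2, Angptl1 is at 0 in 8 populations, and Clu also has points between 90 and 1430 CPM in endothelial cells 1 and 2.

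Summed over tendon fibroblasts 1 to 3, each gene took most of its UMIs from these cells in every library. The share was 98.7 to 99.9% for Angptl7, 98.5 to 100% for Angptl1, 99.5 to 99.7% for Myoc and 97.4 to 99.8% for 1500015O10Rik. Clu was more spread, with 94.3, 78.1, 99.0 and 96.4% in libraries 1 to 4, and library 2, which has the fewest tendon fibroblasts, was lowest. In the other cells together Clu stood at 139, 246, 187 and 146 CPM, Angptl7 at 10.0, 3.85, 24.3 and 18.9 CPM, 1500015O10Rik at 6.39 CPM ± 3.44 (n = 4), Myoc at 2.54 CPM ± 2.41 and Angptl1 at 1.15 CPM ± 1.33. The low Angptl7 level in other cells was highest in library 3, which has the largest share of tendon fibroblasts, and lowest in library 2, which has the smallest. The part of free RNA in these low levels was not tested. As a description, the fitted log2 differences between tendon fibroblasts and other cells were 8.77 for Angptl7, 7.89 for Angptl1, 9.57 for Myoc, 5.72 for Clu and 8.08 for 1500015O10Rik, in a contrast where 13.5% of 9541 genes were higher in tendon fibroblasts. The rule used that contrast, so nothing is read from it.

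The comparison of tendon fibroblasts 1 with tendon fibroblasts 2 asks how these genes divide between the main tendon cell populations. The rule did not name this contrast, but the levels of tendon fibroblasts 1 entered the selection. A gene high in that population alone among the tendon fibroblasts, as Clu was, could be picked for it. The p-values below are therefore not free of the selection. Angptl7, Myoc, Clu and 1500015O10Rik were higher in tendon fibroblasts 1 and Angptl1 was higher in tendon fibroblasts 2, each in 3 of 3 libraries. Within libraries 1, 3 and 4, Angptl7 was 12.1, 4.77 and 139 times as high in tendon fibroblasts 1, Clu 209, 25.4 and 869 times, 1500015O10Rik 8.0, 2.36 and 21.1 times, and Myoc 2.57, 4.88 and 1.85 times. Angptl1 stood at 0.240, 0.301 and 0.234 times its level in tendon fibroblasts 2. For Angptl7, Clu and 1500015O10Rik the smallest ratio was in library 3, and for Myoc the largest was there.

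All 5 genes passed the filter on low counts and the test (edgeR quasi-likelihood test with the library as a block, Benjamini-Hochberg adjusted p under 0.05). Of 7043 genes tested, 8.12% passed, 4.33% with the higher level in population 1 and 3.79% with the higher level in population 2, with a median log2 fold change of 0.01. The edgeR log2 fold change was 4.12 ± 0.76 (SE) for Angptl7 (adjusted p = 0.00854). Clu differed by 7.0 ± 0.82 (edgeR adjusted p = 8.05e-04) and 1500015O10Rik by 2.98 ± 0.54 (edgeR adjusted p = 0.00802). Myoc differed by 1.75 ± 0.26 (edgeR adjusted p = 0.00276), although its levels overlapped between the populations. Angptl1 differed by -1.75 ± 0.22 (edgeR adjusted p = 0.00114), and without the library block it missed the threshold (-1.71, edgeR adjusted p = 0.0738). The size of 3 differences moved with single libraries: Angptl7 was 5.19 without library 3 and 3.07 without library 4, Clu 6.30, 8.43 and 6.25 without libraries 1, 3 and 4, and 1500015O10Rik 3.88 without library 3 and 2.24 without library 4. The number of genes passing fell from 572 to 362 without library 1.

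**Figure D2:**
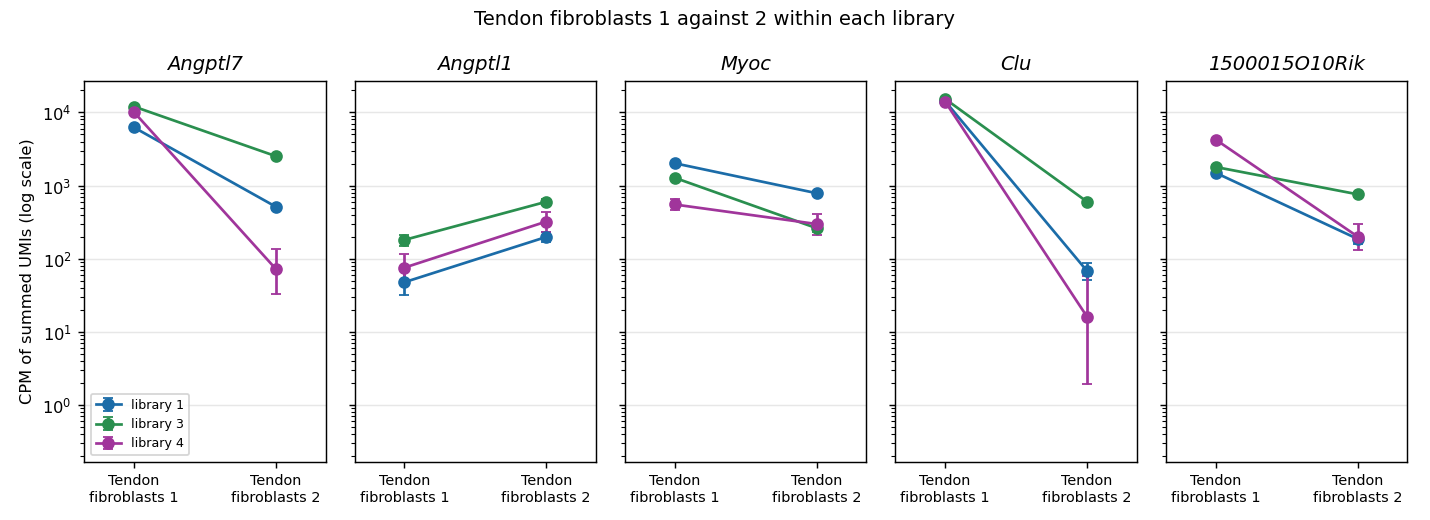
Level of each gene (CPM of summed UMIs, log axis shared by the panels) in tendon fibroblasts 1 and 2 of libraries 1, 3 and 4, with lines joining a library and bars for exact Poisson 95% intervals, which cover counting error only. The lines fall for Angptl7, Myoc, Clu and 1500015O10Rik and rise for Angptl1 in each library.

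The authors formed the populations from the same counts, so the test does not ask whether the populations exist. When the cells of tendon fibroblasts 1 and 2 were divided anew into 2 k-means clusters without the 5 genes, 97.1% of the first and 91.0% of the second kept their name. Of the 14 cells of tendon fibroblasts 2 that changed sides, 10 came from library 3. The log2 differences between these clusters were 4.01 for Angptl7, -1.59 for Angptl1, 1.57 for Myoc, 6.51 for Clu and 2.63 for 1500015O10Rik, and edgeR's adjusted p ranged from 4.00e-05 to 0.00670. The clusters come from the same cells and largely repeat the authors' populations, so these p-values are no independent test. Tendon fibroblasts 2 of library 3 remained high after this division, with 2180 CPM of Angptl7 against 663 and 73.4 CPM in libraries 1 and 4, and 410 CPM of Clu against 201 and 16.3 CPM.

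In the authors' populations, library 3 stood above libraries 1 and 4 in tendon fibroblasts 2 for Angptl7, Clu and 1500015O10Rik, and for Angptl1. Some other genes were also highest in library 3 there. Chad, a cartilage matrix protein, stood at 279, 716 and 169 CPM in tendon fibroblasts 2 of libraries 1, 3 and 4. Comp, a matrix protein of tendon and cartilage, stood at 798, 3637 and 1957 CPM, and the collagen gene Col1a1 at 23326, 63313 and 43145 CPM. Comp and Col1a1 are both on the list of general tendon fibroblast markers. Dpt, at most 8.09 CPM in tendon fibroblasts 1, stood at 1021, 902 and 725 CPM and was not highest in library 3. What lies behind the high values of library 3 was not tested. Ibsp, a bone matrix protein, stood at 1318 to 1843 CPM in tendon fibroblasts 1 of libraries 1, 3 and 4, but at 31.3 CPM (4 UMIs) in library 2. In tendon fibroblasts 2 of libraries 1, 3 and 4 Ibsp was at most 6.97 CPM. In library 2, tendon fibroblasts 2 had 2 cells, which held 2 UMIs of Angptl7, 22 of Angptl1, 4 of Myoc, 4 of Clu and 19 of 1500015O10Rik.

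Cells of the same population differed in how evenly they carried these transcripts. Among the 173 cells of tendon fibroblasts 1, Clu was found in 172 and Angptl7 in 168, while 1500015O10Rik was found in 158, Myoc in 89 and Angptl1 in 67. Over cells, Angptl7 ranged from 0 to 37575 CPM with a median of 7207 and quartiles of 3720 and 12542. Clu ranged from 0 to 62982 CPM with a median of 15052 and quartiles of 7064 and 23487. A level of 1000 CPM or more was found in 155 cells for Angptl7 and in 169 for Clu. Myoc ranged from 0 to 25710 CPM with a median of 96.0 and quartiles of 0 and 1436, and 45 of the 173 cells held 1000 CPM or more. For 1500015O10Rik the median was 1035 CPM with quartiles of 488 and 2082, and the highest cell, in library 4, had 15625 CPM.

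**Figure D3:**
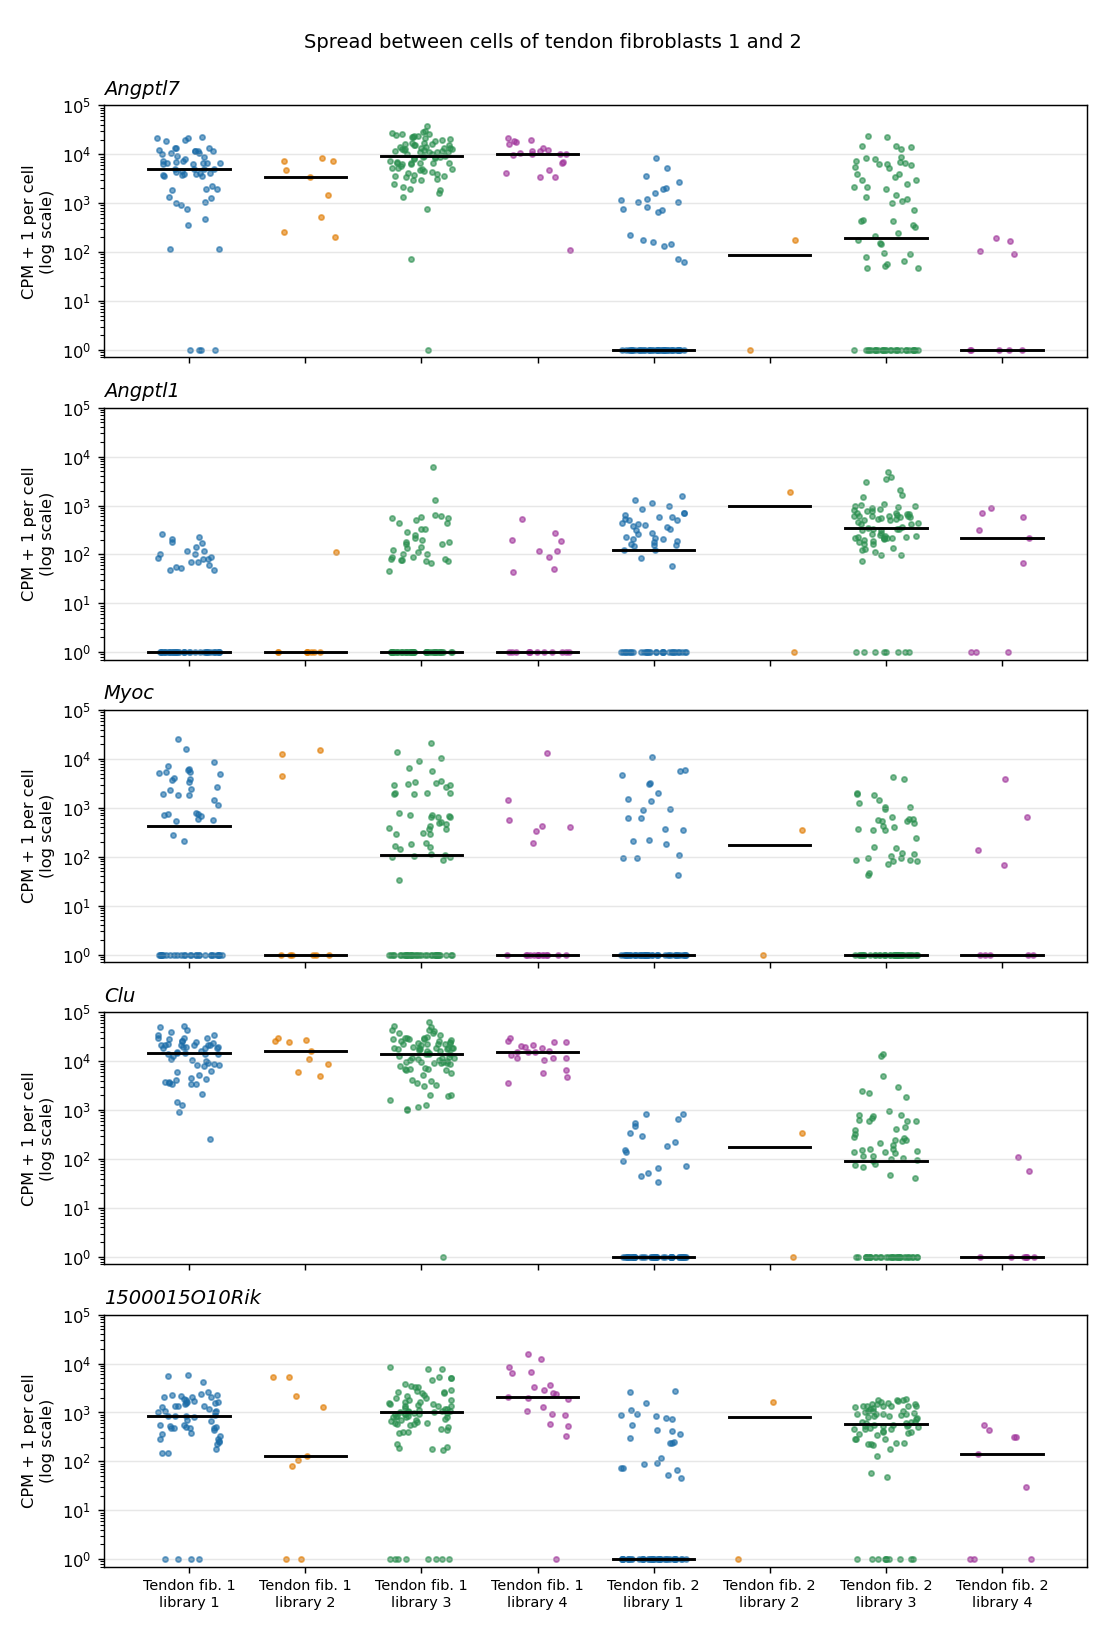
Level in single cells (CPM + 1, log axis) of tendon fibroblasts 1 and 2 by library, 1 point per cell, with the median as a black line. Clu and Angptl7 form a band in tendon fibroblasts 1, Myoc reaches from 0 to 25710 CPM in the first and 11002 CPM in the second of these populations, and in tendon fibroblasts 2 high Angptl7 cells are most frequent in library 3.

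The concentration of a gene in few cells was measured as the share of its UMIs held by the highest 10% of cells. In tendon fibroblasts 1, where that is 18 cells, they held 26.8% of the UMIs of Clu, 35.3% of Angptl7, 53.6% of 1500015O10Rik, 69.4% of Angptl1 and 76.1% of Myoc. The 110 genes with 1000 CPM or more in this population had a median share of 32.8% and a 90th percentile of 52.4%. Among them Myoc ranked 2nd from the most concentrated, 1500015O10Rik 8th, Angptl7 42nd and Clu 101st. These shares pool cells of libraries that differ in level, so they were also taken within the libraries with 20 or more cells of the population. Within libraries 1, 3 and 4 the highest 10% of cells held 61.9, 72.9 and 90.4% of the Myoc UMIs (the last from a level under 1000 CPM), 51.1, 43.2 and 58.4% for 1500015O10Rik, 32.2, 37.1 and 36.2% for Angptl7 and 27.1, 29.8 and 29.3% for Clu. The median over genes at 1000 CPM or more was 32.9, 31.8 and 39.5% in these libraries. Myoc ranked 4th of 110 genes in library 1 and 2nd of 113 in library 3, and 1500015O10Rik 11th, 22nd and 8th (of 101 genes in library 4). Angptl1 lay below 1000 CPM and was not ranked, since sparse counts concentrate by sampling. In tendon fibroblasts 2 the highest 16 of 156 cells held 68.4% of the Angptl7 UMIs, which ranked 2nd among 128 genes at 1000 CPM or more (median 27.3%). That share pools libraries whose Angptl7 levels differ, and the gene reaches 1000 CPM in library 3 alone. Within library 3 the highest 8 of 78 cells held 50.6% of the Angptl7 UMIs, which ranked 1st among 122 genes there (median 24.5%), and within library 1 the highest 7 of 67 cells held 69.8%. There, 11 of 67 cells in library 1, 31 of 78 in library 3 and 0 of 9 in library 4 held 1000 CPM or more of Angptl7.

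**Figure D4:**
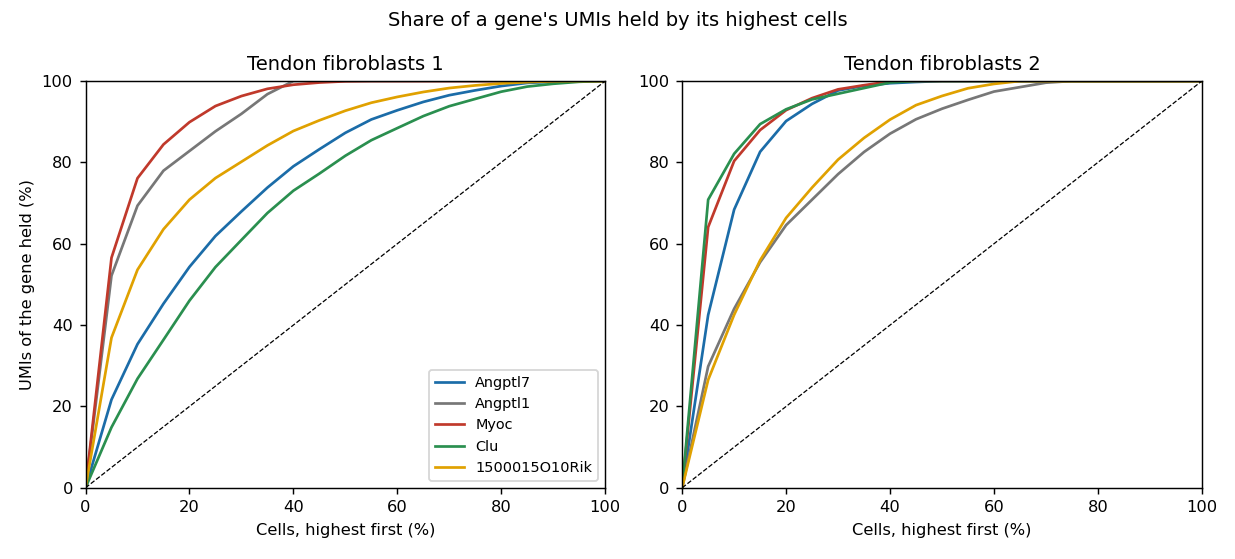
Share of a gene's UMIs (y axis, %) held by its highest cells (x axis, % of cells) in tendon fibroblasts 1 and 2, with a dashed line for an even split. In tendon fibroblasts 1 the Clu and Angptl7 curves lie nearest the even line and Myoc and Angptl1 farthest from it, and in tendon fibroblasts 2 Angptl7 and Clu join Myoc.

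Shares of cells were also compared at equal depth, with each cell thinned to 2400 UMIs and 114 shallower cells left out. In tendon fibroblasts 1 (161 of 173 cells kept), 99.7% ± 0.667 of cells held Clu, 89.9% ± 8.67 Angptl7, 79.5% ± 16.9 1500015O10Rik, 38.8% ± 11.3 Myoc and 10.6% ± 7.49 Angptl1 (SD over n = 4 libraries). In tendon fibroblasts 2 (148 of 156 cells kept) the shares were 15.7% ± 18.4, 23.2% ± 25.6, 43.1% ± 22.6, 28.1% ± 2.87 and 46.8% ± 18.4 in the same order (n = 3). Endothelial cells 1, which served as the background for the genes other than Clu, held Angptl7 in 4.40% ± 3.93 of thinned cells and 1500015O10Rik in 1.04% ± 2.08, with 0 cells for Myoc and Angptl1. Clu was found in 58.9% ± 15.2 of thinned endothelial cells 2 and 26.9% ± 12.4 of endothelial cells 1. Without thinning, the shares of tendon fibroblasts 1 were 99.7, 98.0, 89.2, 44.2 and 33.1% for Clu, Angptl7, 1500015O10Rik, Myoc and Angptl1, at a median depth of 8824 UMIs. Endothelial cells 1, with a median of 7343 UMIs, then held Angptl7 in 11.7%, 1500015O10Rik in 6.90%, Myoc in 2.78% and Angptl1 in 0.893% of cells.

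A thinned cell of tendon fibroblasts 1 held 3.34 of the 5 genes on average, and 0 of 161 cells held none. In tendon fibroblasts 2 the average was 1.86, and 23 of 148 cells held none of the genes. The averages there were 1.17, 2.53 and 1.0 in libraries 1, 3 and 4. In tendon fibroblasts 3 it was 0.435, and 30 of 46 cells held none. Within a population and a library, the genes were at most weakly ordered together over cells: Spearman's rho between pairs lay between -0.377 and 0.348 in tendon fibroblasts 1 and 2 of libraries 1 and 3 (60 to 83 cells each, given as a description). The lowest was Myoc with Clu in tendon fibroblasts 1 of library 1 (-0.377), and the same pair gave -0.134 in library 3. The highest was Clu with 1500015O10Rik in tendon fibroblasts 2 of library 3 (0.348), next to Angptl7 with Clu there (0.339). Cells of a library share its depth and free RNA, and in such sparse counts these values are no finding.

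Across the 39 sums of a population in a library, the genes most like each of the 5 were found by Pearson's r of log2(CPM + 1), among 7293 genes with a mean of 50 CPM or more in a population. These sums share libraries and depth, and r is given as a description. They span all populations, so r largely follows the contrast of tendon fibroblasts with other cells on which the 5 genes were selected. High values, also among the 5 genes, are therefore no finding. Angptl7 was most like Comp (0.894), Cilp (0.881), which encodes a cartilage intermediate layer protein, and Ucma (0.865), which encodes a cartilage matrix protein. For Angptl1 they were Kera (0.927), the gene of the small proteoglycan keratocan, Itgbl1 (0.913) and Egfl6 (0.902), both with EGF-like repeats. Myoc was most like Itgbl1 (0.930), Clec11a (0.891), a secreted lectin, and Cilp (0.887). 1500015O10Rik was most like Cilp (0.852), Chad (0.837) and 3632451O06Rik (0.833). Clu had lower values, with Cytl1 (0.759), a cytokine-like protein of cartilage, Scrg1 (0.735) and Alox12 (0.735), a lipoxygenase. Among the 5 genes themselves r was 0.774 to 0.860 for pairs without Clu and 0.380 to 0.562 for pairs with Clu.

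Genes related to the 5 by family or by binding were followed from a list of 43, of which 36 are in the table. Between tendon fibroblasts 1 and 2, 15 of them were tested, 0 were higher and 4 were lower in tendon fibroblasts 1, where 8.12% of all genes tested passed and 3.79% were lower in tendon fibroblasts 1. The median log2 fold change was -0.44 over these 15 genes and 0.01 over all genes tested. Between tendon fibroblasts and other cells 24 were tested, of which 7 passed upward and 6 downward, with a median of -0.18 against -0.01 over all genes, and 29.4% of genes passed that test in either direction (15.9% lower in tendon fibroblasts).

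Of the angiopoietin-like and angiopoietin ligands, 6 of 8 were in the table. Angptl4, a lipase inhibitor of fat metabolism, was lower in tendon fibroblasts 1 than in tendon fibroblasts 2 (3.12 CPM ± 5.38, n = 4, against 54.3 ± 5.44, n = 3), with an edgeR log2 fold change of -3.30 ± 0.58 (SE) and an adjusted p of 0.00683. It was -5.37 without library 1 and -2.57 without library 3. Angpt1, the activating ligand of TEK, had 1 UMI in tendon fibroblasts 1 and 35 in tendon fibroblasts 2 of the same libraries, a CPM ratio of 32.4 in favour of the second (exact 95% counting interval 5.45 to 1317, edgeR adjusted p = 0.00802). Angptl2 stood at 120 CPM ± 59.2 in tendon fibroblasts 1 and 218 ± 96.1 in tendon fibroblasts 2, a difference that did not pass (edgeR adjusted p = 0.103). Against other cells Angptl2 was higher in tendon fibroblasts (153 CPM ± 72.3 against 46.4 ± 22.8, n = 4, edgeR log2 2.01 ± 0.36 SE, adjusted p = 0.00264). Angpt2, the vessel-remodelling ligand, was lower (1.76 CPM ± 3.52 against 31.8 ± 12.0, n = 4, edgeR adjusted p = 0.00168), with an edgeR log2 fold change of -3.32, and -7.32 without library 1. The receptors Tie1 and Tek were highest in endothelial cells 3 and 2: Tie1 had 0 UMIs in tendon fibroblasts and 1475 in other cells, and Tek stood at 3.09 CPM ± 4.31 against 109 ± 12.4. Itgb1 and Itgav, integrin subunits to which some angiopoietin-like proteins bind, did not pass in either comparison. Pirb, a receptor of the immune system, was highest in immune cells and did not pass the filter on low counts.

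Of a list of olfactomedin-domain genes and latrophilin-family receptors, 11 of 13 were in the table. It includes Adgrl4, a receptor that is named with the latrophilins but lacks that domain. Olfml2b, a secreted matrix protein, was lower in tendon fibroblasts 1 than in tendon fibroblasts 2 (21.8 CPM ± 8.93, n = 4, against 199 ± 34.6, n = 3), with an edgeR log2 fold change of -2.90 ± 0.32 (SE) and an adjusted p of 5.25e-04. Olfml3, another secreted member, was higher in tendon fibroblasts than in other cells (207 CPM ± 28 against 15.1 ± 6.24, n = 4, edgeR log2 4.03 ± 0.25 SE, adjusted p = 7.16e-06), in 4 of 4 libraries. Between tendon fibroblasts 1 and 2 its difference did not pass (148 ± 60.2 against 236 ± 90.9 CPM, edgeR adjusted p = 0.595). Olfml2b was also higher in tendon fibroblasts than in other cells (96.5 CPM ± 56.9 against 36.6 ± 14.2, n = 4), in 3 of 4 libraries. Its edgeR log2 fold change was 1.76 ± 0.37 (SE, adjusted p = 0.00622, and 0.0535 without library 1). The Olfml2b mean of tendon fibroblasts 1 (21.8 CPM) lay below that of other cells. Tendon fibroblasts 2 (199 CPM) and 3 (287 CPM, library 1) lay above it. Between tendon fibroblasts and other cells, Olfm1 passed by little (edgeR log2 0.83 ± 0.23 SE, adjusted p = 0.0248). It missed the threshold with DESeq2 (0.0502), without the block (0.0608) and without library 3 (0.0820) or library 4 (0.0668). Gldn, a Schwann cell protein of nerve nodes, was highest in nerve cells 1 (599 CPM ± 106, n = 3), and Adgrl4 in endothelial cells 1 (923 CPM ± 12.6, n = 4). The latrophilin Adgrl2 was lower in tendon fibroblasts than in other cells (22.1 CPM ± 9.51 against 86.7 ± 7.14, n = 4, edgeR log2 -1.78 ± 0.22 SE, adjusted p = 3.33e-04), in 4 of 4 libraries, and was highest in endothelial cells 2 (235 CPM ± 26.9, n = 4). Olfml2a, a secreted matrix protein, stood at 0.398 CPM ± 0.796 in tendon fibroblasts 1 (n = 4, 1 UMI) and 103 ± 111 in tendon fibroblasts 2 (n = 3), and was highest in pericytes (249 CPM ± 144, n = 4). It did not pass the filter on low counts for tendon fibroblasts 1 against 2. In the 2 other settings that tested it, the edgeR log2 fold change was -6.79 to -6.74 (adjusted p from 1.75e-21 to 6.71e-05). Its SD in tendon fibroblasts 2 was above its mean, so nothing is read from the size of these p-values. Adgrl1 was highest in pericytes and did not pass in either comparison, and Adgrl3 was highest in nerve cells 3 and did not pass the filter on low counts.

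Of the other chaperones, apolipoproteins and clusterin receptors, 8 of 11 were in the table. Apod, an apolipoprotein of small lipid-binding type, had the reverse pattern of Clu: it stood at 23.4 CPM ± 24.5 in tendon fibroblasts 1 (n = 4), 1218 ± 407 in tendon fibroblasts 2 (n = 3) and 7419 in tendon fibroblasts 3 (library 1). The edgeR log2 fold change of tendon fibroblasts 1 against 2 was -5.19 ± 0.37 (SE, adjusted p = 5.61e-05). Lrp1, an endocytic receptor, was higher in tendon fibroblasts than in other cells (1198 CPM ± 114 against 306 ± 162, n = 4, edgeR log2 2.45 ± 0.35 SE, adjusted p = 7.39e-04), and the difference was 3.44 with bursal fibroblasts left out of the other cells. Apoe stood at 201 CPM ± 102 in tendon fibroblasts 1 and 655 ± 270 in tendon fibroblasts 2 (edgeR adjusted p = 0.0695). Trem2, a microglial and macrophage receptor that binds clusterin, was found mainly in immune cells (298 CPM ± 59.5, n = 3). Of the 5 augurin-binding proteins, Tlr4 was higher in tendon fibroblasts than in other cells (28.1 CPM ± 1.98 against 10.8 ± 3.90, n = 4, edgeR adjusted p = 0.00323), and the scavenger receptor Scarf1 was lower (2.27 CPM ± 2.33 against 31.1 ± 2.62, n = 4, edgeR adjusted p = 9.15e-04). The edgeR log2 fold change of Scarf1 was -3.44, with -2.68 without library 1 and -4.28 without library 3. By population, Tlr4 was highest in immune cells (38.9 CPM ± 14.9, n = 3), above tendon fibroblasts 1 (30.9 CPM) and 2 (22.8 CPM). Cd14 and Ly96, partners of Tlr4, were also highest in immune cells and did not pass.

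**Figure D5:**
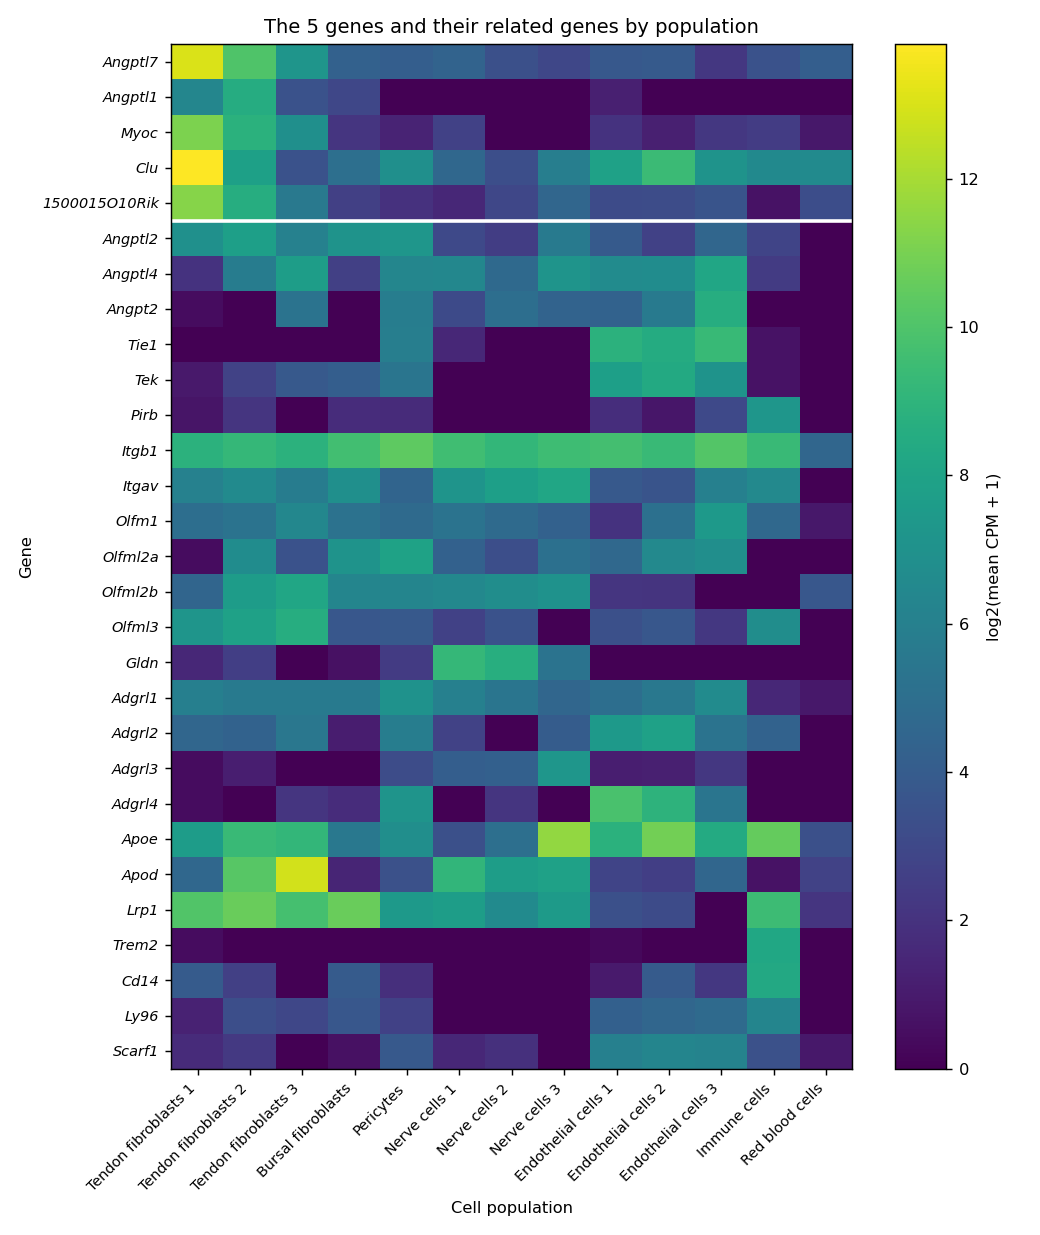
Mean level over libraries, as log2(mean CPM + 1), of the 5 genes (above the white line) and of the related genes reported here with 50 CPM or more in at least 1 population, by population. The 5 genes are brightest in tendon fibroblasts 1 or 2, while Tie1, Tek and Adgrl4 are brightest in endothelial cells and Apod in tendon fibroblasts 3.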

How the data were processed

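The deposited raw counts (UMIs of each gene in each cell), made by the authors with Cell Ranger per the submitters' processing notes, were used for each result. The deposited normalized values are natural log values, of 1 plus the count scaled to a fixed cell total, equal to recomputed ones within 5e-10, and served for that check. Seurat 2.3.4, R 3.5.2 and the build mm10 stand in the submitters' processing notes. The counting of strands is not given in the sources used here. Of 15750 entries, 4 under repeated names (0.0186% of UMIs) were left out, and no cell was removed. Doublets were not called here, and the authors' treatment of them is not given in the sources used here.

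UMIs were summed per library and authors' population (5 or more cells) and tested with edgeR 4.0.16 (R 4.3.3, limma 3.58.1; TMM, filterByExpr, quasi-likelihood test, Benjamini-Hochberg adjustment over the genes tested, threshold 0.05). DESeq2 1.42.0 was an alternative. The library was a block, since both sums come from the cells of 1 library. Deviations of such sums correlated at 0.0522 to 0.140 across genes. On simulated counts with 200 genes changed by 2 (log2), the test recovered 86.5% for tendon fibroblasts 1 against 2 (6695 genes). There 24 calls were false, 12.2% of the calls, which is more than the threshold of 0.05 aims at. For tendon fibroblasts against other cells it recovered 91.0% (9260 genes), with 11 false calls, 5.70% of the calls. The simulated libraries differed in depth only, so the block was not tried. SEs were derived from the fold change and the F statistic.

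Thinning drew 2400 UMIs per cell (seed 11). The k-means division used 1000 variable genes and 10 components (scikit-learn 1.9.0, numpy 2.4.6, scipy 1.17.1, python 3.11.15). The 5 genes and the related-gene and marker lists were chosen with earlier results of these data known. Named genes are the 5, the 3 most like each of them, and related genes that passed a test or reach 50 CPM in a population, apart from 2 that are not reported here. Chad, Ibsp, Col1a1 and Dpt were named after their values were seen. Intervals and floors cover counting error only.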

Additional observations from a re-analysis of the deposited data

Results flagged for a closer look

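In groups of 4 libraries, a single library can stand apart from the other 3 by Dixon's criterion, which flags about 1 in 20 groups of continuous values by chance. That rate does not hold for groups in which all but 1 library are at 0, since any UMI then meets the criterion, and 3 of the groups given here are of that kind. Of 22 groups of a gene in a population, 4 had such a library, and each rests on 1 or 2 UMIs. Angptl1 in endothelial cells 1 was 5.28 CPM in library 3 (1 UMI) and 0 in the other libraries. Myoc in endothelial cells 2 was 5.23 CPM in library 1 (2 UMIs) and 0 in the others. Myoc in red blood cells was 3.44 CPM in library 1 (1 UMI) and 0 in the others. 1500015O10Rik in endothelial cells 2 was 27.0 CPM in library 4 (2 UMIs), with 0 to 3.14 CPM in the others. The levels of the 5 genes in tendon fibroblasts 1 had no such library.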

How the results depend on the processing

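Of 385 values of 51 results under another setting, 357 kept their direction and side of the threshold or moved by less than the spread, 22 moved, 6 lost the threshold and 0 reversed. Between tendon fibroblasts 1 and 2, 49 of 50 values of the 5 genes still passed. Sums of 10 or more cells keep libraries 1 and 3 alone, the same fit as without library 4, and were counted once. The exception was Angptl1 without the replicate block (-1.71, edgeR adjusted p = 0.0738, against a range of 2.16e-08 to 0.0738 over its 10 alternatives). The highest adjusted p over 10 alternatives was 0.0441 for Angptl7, 0.0489 for Myoc, 0.00386 for Clu and 0.0367 for 1500015O10Rik. Leaving out 1 library gave log2 values of 3.07 to 5.19 for Angptl7, -1.80 to -1.74 for Angptl1, 1.42 to 1.97 for Myoc, 6.25 to 8.43 for Clu and 2.24 to 3.88 for 1500015O10Rik.

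Counts of genes passing moved more. Between tendon fibroblasts 1 and 2 the 572 became 371 with DESeq2, 1073 with no filter on low counts (14114 tested), 266 with thinned cells (2052 tested) and 362 to 529 without 1 library. The block pairs sums of the same library's cells, and 547 passed without it. The 4 related genes of 15 tested became 8 of 33 with no filter (7.60% of all genes passed) and 2 of 12 with sums of 2 or more cells (448 of 5322 genes, 8.42%). Without the block Angptl7 was 3.27 and Clu 5.98, and with thinned cells Clu was 6.40 and 1500015O10Rik 2.38. For tendon fibroblasts against other cells, 2802 became 1330 with thinned cells (4382 tested) and 1930 to 2760 without 1 library, and 13 related genes of 24 tested became 20 of 36 with no filter (23.9% of all genes passed). In that contrast the log2 difference of Angptl1 (7.89) was 8.37 without the block, 6.95 with thinned cells and 9.51 without bursal fibroblasts. With thinned cells Clu (5.72) was 5.41 and 1500015O10Rik (8.08) was 6.77.

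Shares of cells follow depth: without thinning, Angptl1 rose from 10.6 to 33.1% in tendon fibroblasts 1 and from 46.8 to 70.0% in tendon fibroblasts 2, where Angptl7 went from 23.2 to 47.1%, Myoc from 28.1 to 41.6% and Clu from 15.7 to 35.1%. At 1000 UMIs, Angptl1 and Myoc in tendon fibroblasts 2 were 26.1 and 19.2%, and Clu and 1500015O10Rik in tendon fibroblasts 1 were 98.1 and 54.0% (from 99.7 and 79.5%). As a mean over cells, Clu in tendon fibroblasts 1 was 16610 CPM, against 14428 from summed UMIs. Except where a setting tests fewer genes or keeps fewer UMIs, the cause was not tested. Tendon fibroblasts 2 rest on 9 cells in library 4, and tendon fibroblasts 3 and endothelial cells 3 on 1 library.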
